A study of Homo sapiens with 28 samples.

Results

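The type I interferon response genes examined here are 41 listed genes that cells switch on when interferon alpha or beta reaches its receptor. A member was taken as any probe set whose only gene symbol in the platform annotation is one of the 41, and each gene was read from its brightest such probe set. Of the 41, 40 were measured among 19775 genes in all, STAT2 is not analysed here, and 38 passed the filter on dim genes that left 15448 genes for testing. The 2 that did not pass were IFI44L, above the array median on 3 of 28 arrays, and DHX58, above it on 0. Several of the 38 passed on few arrays: IFIT2 on 7, USP18, RSAD2 and TRIM22 on 10 each, and CMPK2 on 11.

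The arrays hold RNA from 4 established lines of human malignant plasma cells grown alone in culture, the myeloma lines 8226/S, KMS11, MM.1s and U266. Each line was treated with darinaparsin (DAR), an organic arsenical, for 6 or 24 h, or with arsenic trioxide (ATO), the inorganic form, for 6, 24 or 48 h, and was set against untreated cells of the same line taken at 0 h. ATO was given at 2 µM to every line. DAR was given at 4 µM to U266, 3 µM to MM.1s and KMS11 and 2 µM to 8226/S, so the DAR doses differed between lines. Each line has 1 array per agent and time and 2 untreated arrays, control 1 and control 2, 28 arrays in all. DAR arrays were compared with control 1 and ATO arrays with control 2 of the same line. Because the untreated cells were taken at 0 h, treatment and time in culture cannot be told apart in any comparison with a control.

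Plasma cell markers were present as labelled, 6 of 8 above the array median on all 28 arrays, while 9 of 17 listed markers of other cell types (monocytes, T and NK cells, plasmacytoid dendritic cells, stromal cells) were above it on at least 4 arrays. The summed signal of the 5 monocyte markers was 75.2 to 579, of the 4 T and NK cell markers 100 to 918 and of the 4 stromal markers 189 to 1630, against 28800 to 122000 for the 8 plasma cell markers. The 4 plasmacytoid dendritic cell markers were not low, summing to 3830 to 18200, with 18200 in 8226/S after 24 h of DAR and 15100 in its control 1. Of these, TCF4 was above the array median on all 28 arrays, at 3540 to 18000. CD14 of the monocyte list and NKG7 of the T and NK cell list were above the median on 0 arrays. From the same lists, CSF1R was above it on 11 arrays, CD3E on 15 and CD2 on 20. The stromal markers COL1A1, DCN, COL1A2 and COL3A1 were above it on 22, 21, 20 and 6, and the dendritic cell marker LILRA4 on 20. Their part in the results was not tested. The arrays fell into 2 sets by their values. The 12 DAR and control 1 arrays had a median signal of 65.5 to 108.7, against 110.9 to 147.3 on the 16 ATO and control 2 arrays, and each of the 20 treated arrays resembled the untreated array of its own set more than the other. The number of arrays limits the precision. The labels do not say whether the 2 controls of a line came from separate cultures, and in these bulk samples a response in fewer cells and a weaker response per cell cannot be told apart.

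In the pathway, type I interferons bind a receptor made of IFNAR1 and IFNAR2, the kinases JAK1 and TYK2 on that receptor become active, and the factor ISGF3, which contains IRF9, enters the nucleus. ISGF3 binds the interferon-stimulated response element in the promoters of its target genes, which encode sensors of foreign RNA, enzymes that block viral replication, and chemokines. Cells make interferon themselves when RNA or DNA sensors such as RIG-I, MDA5 and cGAS activate IRF3 and IRF7, so the same genes can move without added interferon. In plasma cells and myeloma, interferon alpha has long been studied as a growth-restraining cytokine.

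The response element core was searched on both strands as GAAA, any 2 bases, and GAAA again, which on the reverse strand reads TTTC, any 2 bases, and TTTC. Overlapping matches were each counted. Promoter windows of 250 bases before to 50 bases after the annotated start came from RefSeq (GRCh38.p14). Of the 41 listed genes, 31 had a window, and 23 of them (74.2%) held a match in at least 1 window, against 4.38% of the 27305 genes in the table. Counted by window, the shares were 28 of 42 (66.7%) for the listed genes and 3.57% of 35116 windows for the table. The other 10 are named only among the members. The windows of 6 members whose signals are followed below are printed 5′ to 3′ on the gene's strand with matches in capitals, to show how the element sits in genes with large changes. Where a gene has several windows, the first that holds a match is shown. IFIT1 (chr10:89392373-89392672, plus strand) and IFIT3 (chr10:89327747-89328046, plus strand) each held 2 matches on the reverse strand, ISG15 (chr1:1013247-1013546, plus strand) 2 that overlap, MX1 (chr21:41420308-41420607, plus strand) 1 just past the annotated start and CXCL10 (chr4:76023448-76023747, minus strand) 1 farther upstream. XAF1 (chr17:6755197-6755496, plus strand) held none of these letters in the window, and is shown for contrast.
IFIT1: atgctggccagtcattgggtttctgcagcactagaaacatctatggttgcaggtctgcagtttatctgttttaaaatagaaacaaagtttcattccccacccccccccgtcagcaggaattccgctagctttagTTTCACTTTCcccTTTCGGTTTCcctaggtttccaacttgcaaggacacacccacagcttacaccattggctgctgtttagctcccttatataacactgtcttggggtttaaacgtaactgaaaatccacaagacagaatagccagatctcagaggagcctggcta
IFIT3: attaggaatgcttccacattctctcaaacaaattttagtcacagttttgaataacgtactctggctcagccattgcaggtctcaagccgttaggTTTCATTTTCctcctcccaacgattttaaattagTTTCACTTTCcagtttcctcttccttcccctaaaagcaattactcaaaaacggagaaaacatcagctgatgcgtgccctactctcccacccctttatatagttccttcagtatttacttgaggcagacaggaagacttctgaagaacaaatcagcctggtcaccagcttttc
ISG15: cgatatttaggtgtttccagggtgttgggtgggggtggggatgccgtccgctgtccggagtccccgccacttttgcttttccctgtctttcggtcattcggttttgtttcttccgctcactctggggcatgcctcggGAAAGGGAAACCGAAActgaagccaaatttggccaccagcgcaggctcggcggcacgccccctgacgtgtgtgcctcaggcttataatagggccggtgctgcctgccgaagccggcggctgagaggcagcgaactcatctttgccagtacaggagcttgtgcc
MX1: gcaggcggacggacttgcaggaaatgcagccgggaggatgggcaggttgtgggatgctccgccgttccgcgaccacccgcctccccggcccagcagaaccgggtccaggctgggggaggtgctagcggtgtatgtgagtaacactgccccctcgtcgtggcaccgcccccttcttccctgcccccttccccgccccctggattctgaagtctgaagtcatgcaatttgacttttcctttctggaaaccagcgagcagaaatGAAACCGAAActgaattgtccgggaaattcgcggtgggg
CXCL10: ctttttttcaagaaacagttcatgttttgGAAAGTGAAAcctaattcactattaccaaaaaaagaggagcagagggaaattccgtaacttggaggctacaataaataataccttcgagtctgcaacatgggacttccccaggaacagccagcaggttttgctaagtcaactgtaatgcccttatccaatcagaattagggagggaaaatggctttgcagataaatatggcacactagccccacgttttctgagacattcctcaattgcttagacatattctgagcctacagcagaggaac
XAF1: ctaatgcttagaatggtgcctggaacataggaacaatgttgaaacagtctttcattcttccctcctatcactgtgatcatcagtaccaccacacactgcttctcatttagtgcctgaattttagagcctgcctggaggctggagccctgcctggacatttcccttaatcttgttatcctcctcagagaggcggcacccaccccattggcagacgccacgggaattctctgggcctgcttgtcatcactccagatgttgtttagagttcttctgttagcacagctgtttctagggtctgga
Counting the annotated start as base 1 with no base 0, the matches begin at -116 and -103 in IFIT1, at -156 and -122 in IFIT3, at -113 and -107 in ISG15, at 12 in MX1 and at -221 in CXCL10. A match is a description of the letters and does not show that a factor binds there.

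Of the 20 pairs of line and treatment, 8226/S after 24 h of DAR showed the largest movement of the interferon genes. There 35 of 38 tested members were at least 1 log2 unit above control 1 and 0 were as far below it, against 8.17% of all genes tested above and 4.49% below. The median member stood 2.54 log2 units above control, from 0.02 for CMPK2 to 6.82 for CCL5, and 29 members were at least 1 log2 unit above both untreated arrays of the line, against 2.4% of all genes. Signal on the log2 scale here is log2(signal + 29), which understates changes of dim genes. With 1 array per line and time, these line values have no replicate and are descriptions.

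**Figure D1:**
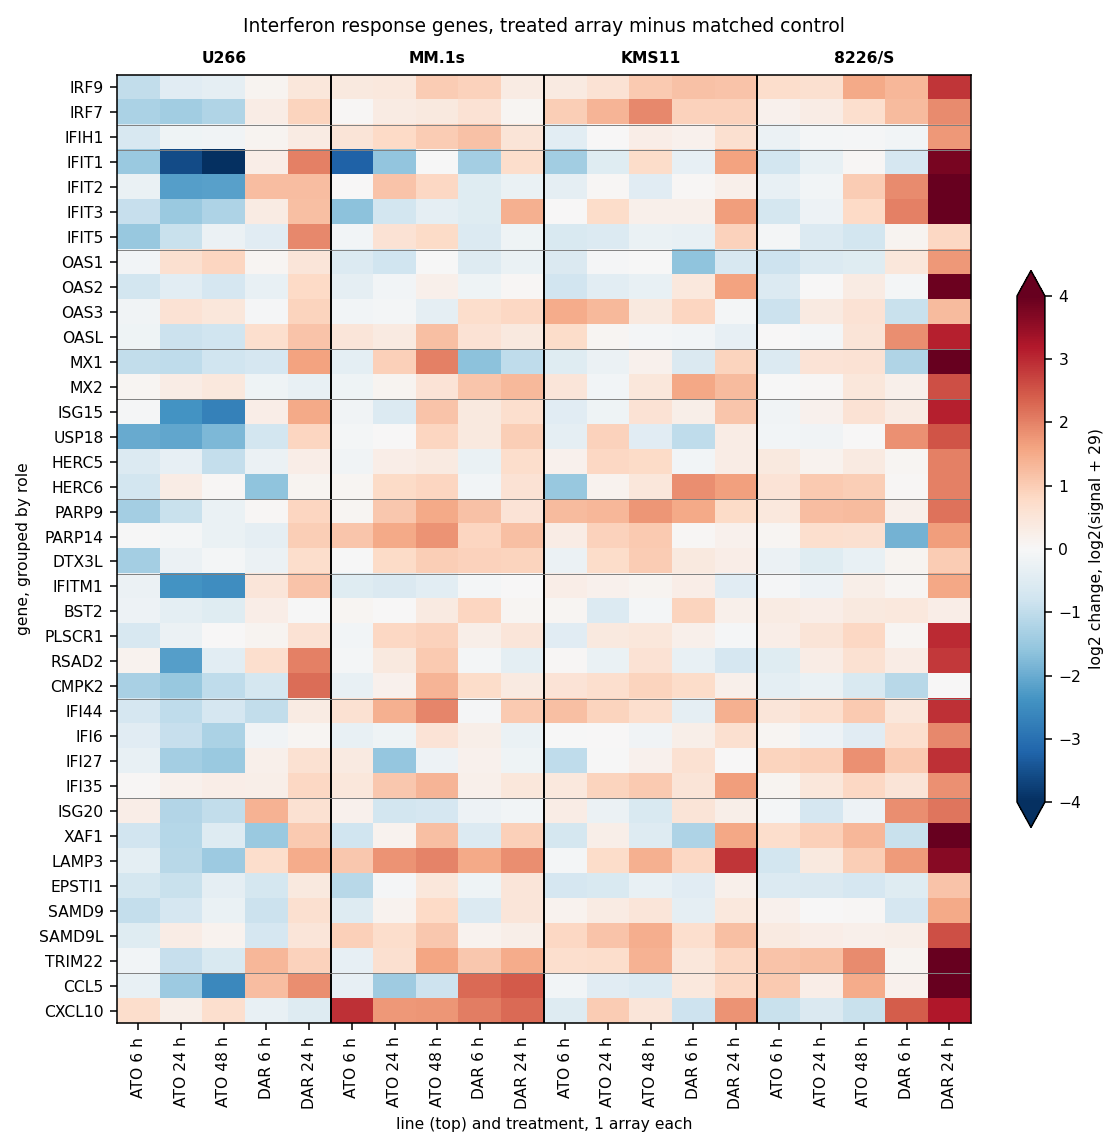
Heat map of the log2 change (treated array minus the control of its set, colour limited to 4 log2 units either way) of the 38 tested members, in rows grouped by role, for 4 lines and 5 treatments in columns, 1 array each. The DAR 24 h column of 8226/S is red in nearly every row, and the ATO columns of U266 hold most of the blue.

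Other lines moved less after 24 h of DAR. In U266, 13 members were at least 1 log2 unit above control 1 (5.42% of all genes) with a median of 0.85, but the median against control 2 was 0.03, and 1 member was that far above both untreated arrays (0.939% of all genes). That member was CCL5, with a signal of 913 after 24 h of DAR, against 229 and 312 in the 2 controls. In KMS11, 13 were above control 1 (6.3% of all genes) with a median of 0.71, and 8 above both controls (1.57%). In MM.1s, 8 were above (4.73%) and 1 below (3.86%) with a median of 0.48, and 4 were above both controls (0.874%). Over the 4 lines the median averaged 1.14 ± 0.94 log2 units (SD, n = 4 lines), so 8226/S carried much of that mean. The line given the lowest DAR dose thus showed the largest change, and since dose and line vary together their parts cannot be told apart.

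**Figure D2:**
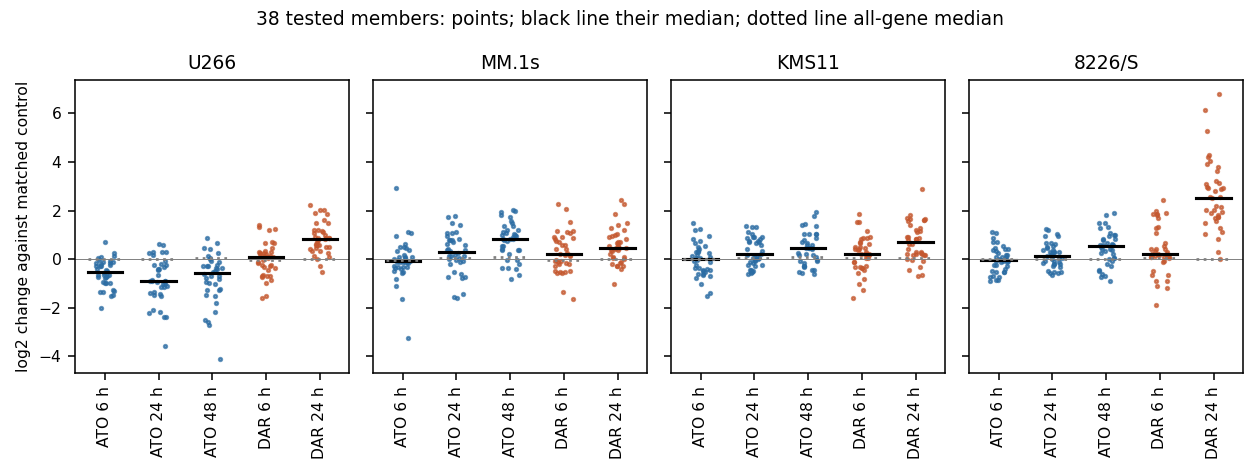
Log2 change against the matched control (vertical axis) of each of the 38 tested members (points, blue for ATO and orange for DAR), by treatment, with 1 panel per line; the black bar is the members' median and the dotted bar the median of all genes. The member median reaches 2.54 in 8226/S after 24 h of DAR and lies below 0 in U266 at each ATO time against control 2. The U266 medians under ATO against control 1, which are not drawn, were above 0.

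Across lines, 23 of 38 members were above control 1 in all 4 lines after 24 h of DAR, against 12.5% of all genes, and 0 were below it in all 4, against 10.5%. In the limma fit over all 28 arrays, 5 members rose and 0 fell at an adjusted p under 0.05, against 0.621% of all genes called in either direction. These 5 were LAMP3, IFIT3, XAF1, OAS2 and IFI35. The median fitted change was 1.09 log2 units over the members and 0.02 over all genes, and 31 of 38 members had an unadjusted p under 0.05, all upward, against 14.7% of all genes. The calls rest on single lines. Without 8226/S or without KMS11, or without either line's DAR 24 h array, 0 members passed. The number passing was 10 without the MM.1s DAR 24 h array, and 6 or 7 without U266, its DAR 24 h array or MM.1s. The shares of all genes called in these fits are not given here.

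Among the 5, LAMP3, a lysosomal membrane protein of mature dendritic cells, had a signal in 8226/S of 92.8 untreated, 367 after 6 h and 1490 after 24 h of DAR. The same series of arrays read 963, 1580 and 2760 in U266, 839, 2470 and 3100 in MM.1s, and 160, 307 and 1350 in KMS11. Every line was higher at 24 h than at 6 h and higher at 6 h than untreated, and the fitted change at 24 h was 2.46 (SE 0.40, limma adjusted p = 0.00846). XAF1, a protein that opposes the caspase inhibitor XIAP, dipped at 6 h and was high at 24 h in each line. It read 70.4, 25.1 and 1910 in 8226/S, 343, 102 and 744 in U266, 213, 138 and 439 in MM.1s, and 63.4, 9.83 and 243 in KMS11. Its fitted change at 24 h was 1.96 (SE 0.44, limma adjusted p = 0.0383).

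IFI35, a partner of NMI in the cytoplasm, gave the smallest of the 5 changes and the smallest adjusted p. Its signal was 549, 803 and 2010 in 8226/S over the untreated, 6 h and 24 h arrays, 2060, 2430 and 3710 in U266, 1320, 1520 and 1800 in MM.1s, and 389, 570 and 1310 in KMS11. It climbed step by step in each line, and the fitted change at 24 h was 1.19 (SE 0.18, limma adjusted p = 0.0049). OAS2 belongs to the enzymes that make oligoadenylates, the activators of RNase L. It read 100, 92.4 and 1910 in 8226/S, 1980, 1620 and 3460 in U266, 1140, 1010 and 1190 in MM.1s, and 100, 143 and 367 in KMS11. Its change was large in 8226/S and slight in MM.1s (fitted change 1.59, SE 0.37, limma adjusted p = 0.0438). In KMS11 at 24 h the OAS2 probe set used gave 1.62 log2 units and the other 2 gave 0.06 and 0.46. The same 3 gave 3.91, 2.07 and 3.56 in 8226/S, 0.8, 0.59 and 0.47 in U266, and 0.06, 0.74 and 0.05 in MM.1s.

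IFIT1 binds RNA that lacks the host's cap methylation, and IFIT2 and IFIT3 join it in a complex. IFIT3, whose promoter is printed above, read 191 untreated, 854 after 6 h and 8550 after 24 h of DAR in 8226/S. It read 3000, 3790 and 6950 in U266, 373, 255 and 1050 in MM.1s, and 162, 190 and 577 in KMS11. The untreated level of U266 was above the 24 h level of MM.1s and KMS11, and all 4 lines were highest at 24 h (fitted change 2.39, SE 0.45, limma adjusted p = 0.0123). IFIT1 read 256, 150 and 3940 in 8226/S, 356, 432 and 1550 in U266, 274, 89.2 and 460 in MM.1s, and 66.2, 46.6 and 263 in KMS11. IFIT2 read 2450 at 24 h, against 6.29 untreated, a level below the array median, in 8226/S (6.13 log2 units). Its other probe set read 515, against 93.3, on the same arrays (2.15). In MM.1s the IFIT2 signal was below the array median on all 7 arrays. IFIT5 stood 0.82 log2 units above control in 8226/S and 1.92 in U266.

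**Figure D3:**
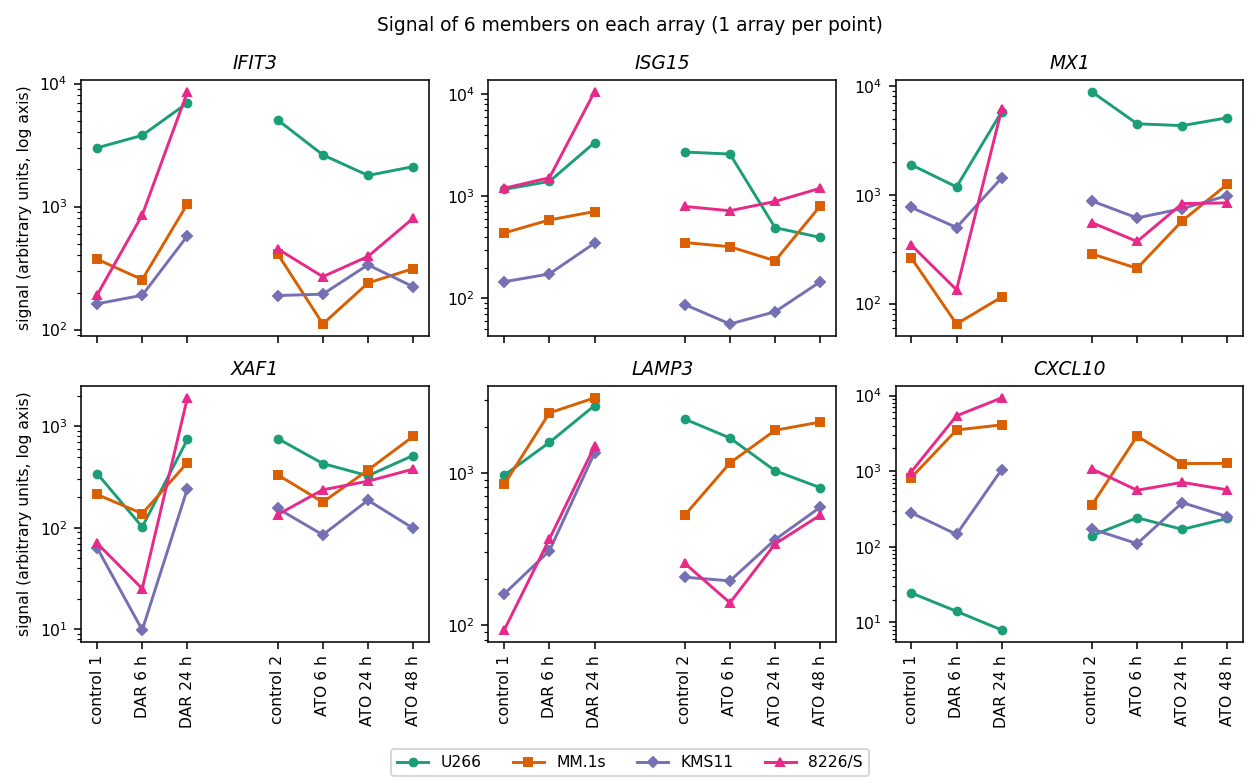
Signal (arbitrary units, log axis) of 6 members on every array, with DAR arrays and control 1 on the left of each panel, ATO arrays and control 2 on the right, and 1 coloured line per cell line. In 8226/S ISG15 stands at 10600 and MX1 at 6070 after 24 h of DAR, above all other arrays of that line.

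The MX proteins are dynamin-like GTPases that trap viral particles. MX1 read 344, 134 and 6070 in 8226/S, 1880, 1180 and 5780 in U266, 262, 65 and 115 in MM.1s, and 764, 500 and 1430 in KMS11. It was lower at 6 h than untreated in each line, and above untreated at 24 h in all but MM.1s. MX2 read 1290 at 24 h, against 193 untreated, in 8226/S.

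ISG15 is a ubiquitin-like protein, HERC5 a ligase that attaches it and USP18 the protease that removes it and also damps the receptor. All 4 members of this group, with HERC6, were at least 1 log2 unit above control in 8226/S after 24 h. ISG15 read 1200, 1520 and 10600 in 8226/S, 1170, 1400 and 3360 in U266, 437, 586 and 709 in MM.1s, and 145, 173 and 347 in KMS11. Each line stepped upward at both times. USP18 read 3.83, 88.7 and 158 in 8226/S, where it passed the array median on 1 of 7 arrays, so it was dim there.

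CCL5 and CXCL10 are chemokines that draw T and NK cells. CCL5 in 8226/S read 12.3, 17.8 and 4650 over the untreated, 6 h and 24 h arrays. The untreated level is far below the array median, so the size of this change is imprecise. The probe set used gave 6.82 log2 units at 24 h and the other 2 gave 5.6 and 5.07. It read 229, 582 and 913 in U266, 589, 2970 and 3320 in MM.1s, and 1060, 1430 and 1910 in KMS11. In MM.1s most of the change was present at 6 h, while in 8226/S it appeared between 6 and 24 h, and the fit over lines fell just short of a call (2.99, SE 0.71, limma adjusted p = 0.0504). CXCL10 read 985, 5400 and 9330 in 8226/S, 825, 3510 and 4100 in MM.1s and 281, 146 and 1050 in KMS11, but 24.5, 14 and 7.93 in U266. U266 was thus the 1 line in which this chemokine did not exceed control 1 at 24 h. Its signal was below the array median on all of these U266 arrays, so its direction there is imprecise.

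The regulators IRF9, the DNA-binding subunit of ISGF3, and IRF7, which amplifies interferon production, were above control 1 in each line at both DAR times. IRF9 read 130, 367 and 1130 in 8226/S, 1680, 1830 and 2330 in U266, 432, 839 and 550 in MM.1s, and 449, 1040 and 1030 in KMS11. Its fitted change at 24 h was 1.20 (SE 0.30) and did not pass (limma adjusted p = 0.0576). IRF7 stood 1.89 log2 units above control in 8226/S and 0.92 in KMS11 at 24 h. IFIH1 encodes MDA5, a sensor of long double-stranded RNA. It read 1060, 984 and 3590 in 8226/S and 1890, 4280 and 2690 in MM.1s.

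Several groups varied within themselves in 8226/S after 24 h of DAR. PARP9 and DTX3L, which form a complex, and PARP14, an ADP-ribosyltransferase, stood 2.17, 1.02 and 1.68 log2 units above control. Of the membrane and mitochondrial proteins, the scramblase PLSCR1 stood 2.97 above, RSAD2, which makes a chain-terminating nucleotide, 2.82 and IFITM1, a block to membrane fusion, 1.56. BST2, the virus tether, stood 0.28 above and CMPK2, a mitochondrial nucleotide kinase, 0.02, and these 2 with IFIT5 are the members short of 1 log2 unit. The remaining genes (IFI44, IFI6, IFI27, ISG20, EPSTI1, SAMD9, SAMD9L, TRIM22, OAS1, OAS3 and OASL) lay between 1.13 for EPSTI1 and 4.21 for TRIM22. IFI44L, which was too dim to test, read 800 in that array, against 32 in control 1.

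Of 20 members with more than 1 probe set, at least 1 probe set was 1 log2 unit or more above control 1 in 8226/S after 24 h of DAR in all 20, and every probe set was in 13. The other 20 members were read from 1 probe set each. The shares of all genes with several probe sets that meet these rules are not given. Asking for at least 1 probe set favours genes with several. The counts thus describe how far probe sets of a member went together and are not read as unusual.

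The comparison of 24 h with 6 h of DAR uses no untreated array and was added after the data had been seen. At 24 h, 31 of 38 members were at least 1 log2 unit above their 6 h level in 8226/S (6.51% of all genes), 15 in U266 (5.5%), 11 in KMS11 (4.78%) and 5 in MM.1s (6.17%), and 0 were as far below in any line (8.97%, 5.33%, 6.23% and 6.91%). The medians were 1.95, 0.8, 0.41 and 0.23 log2 units in that order of lines. In the limma fit 13 members rose and BST2 fell between the times, 14 of 38, against 7.74% of all genes called. XAF1 rose most (3.00, SE 0.44, limma adjusted p = 0.000171), followed by IFIT1 (2.56, SE 0.63, limma adjusted p = 0.0132) and MX1 (2.39, SE 0.51, limma adjusted p = 0.00419). IFIT3, IFI44, OAS2, SAMD9, PARP14, IFIT5, SAMD9L, EPSTI1, HERC5 and IFI35 rose by 0.83 to 1.89 log2 units. BST2 fell by 0.47 (limma adjusted p = 0.028). Above their 6 h level in all 4 lines at 24 h were 18 members, against 12.4% of all genes, and BST2 alone was below it in all 4, against 11.8%. The count was 6 without 8226/S, 5 of them upward, and 9 without the 8226/S DAR 24 h array, 8 of them upward. BST2 was not called without MM.1s or without KMS11.

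**Figure D4:**
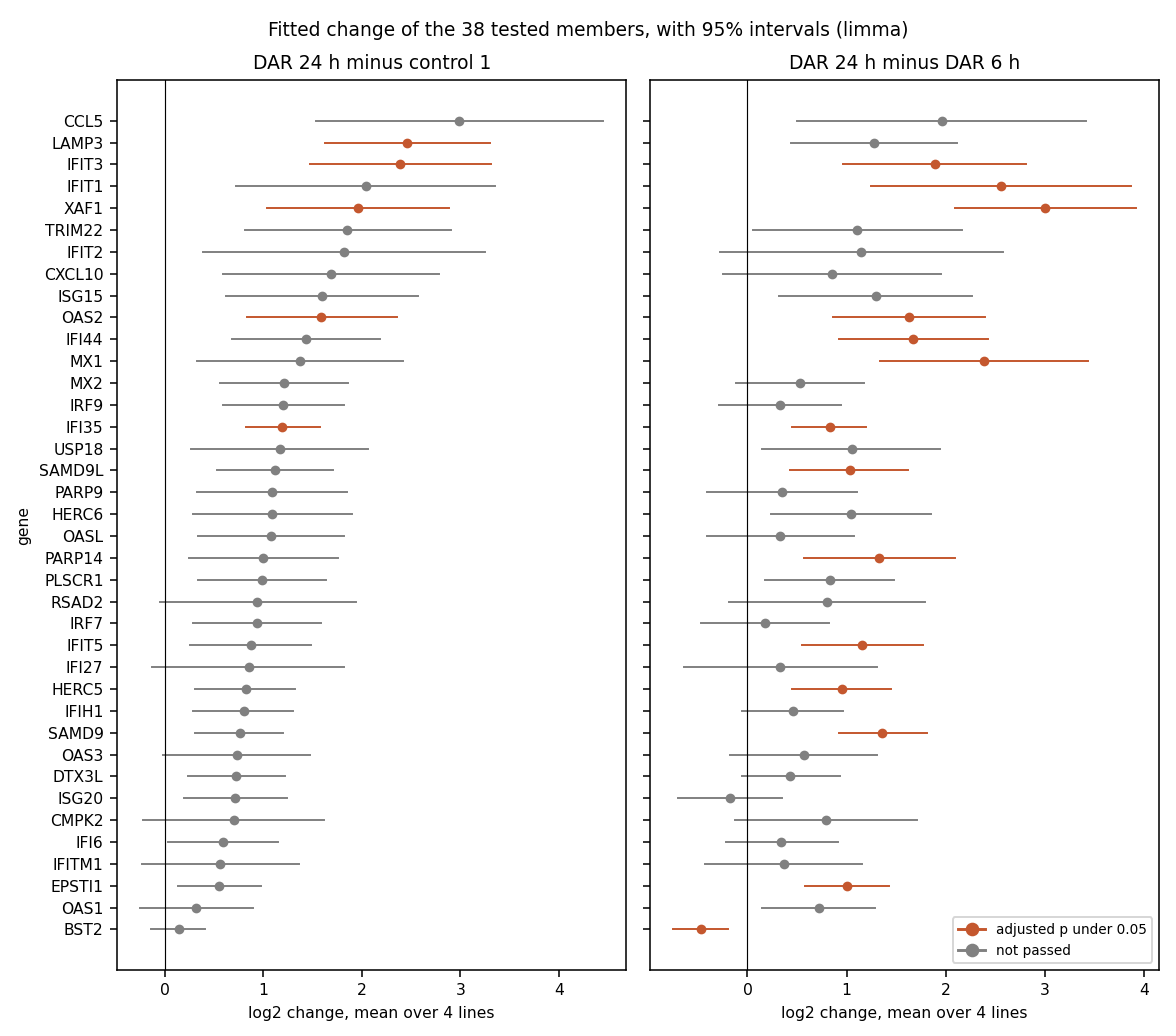
Fitted log2 change over the 4 lines (horizontal axis) with 95% intervals for the 38 tested members, for DAR 24 h minus control 1 on the left and DAR 24 h minus DAR 6 h on the right; orange marks an adjusted p under 0.05. All 5 called members on the left, and all but BST2 of the 14 on the right, lie above 0.

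Fewer members stood apart from control after 6 h of DAR. The count at least 1 log2 unit above control 1 was 10 in 8226/S (11.3% of all genes), 7 in MM.1s (7.75%), and 4 each in KMS11 (7.89%) and U266 (6.25%), with 3, 2, 3 and 2 as far below (4.9%, 6.15%, 4.03% and 5.86%). BST2 rose by 0.61 (SE 0.13, limma adjusted p = 0.0031) and ISG20, an RNA exonuclease, by 0.89 (SE 0.25, limma adjusted p = 0.02), 2 of 38, against 13.2% of all genes. The count was 4 without U266, 3 without the KMS11 array, and 1 without KMS11 or without the U266 array. MX1, XAF1, EPSTI1 and SAMD9 were below control 1 in all 4 lines (14.2% of all genes were), and 11 members were above it in all 4 (14.9%). The median over members averaged 0.18 ± 0.07 log2 units (SD, n = 4 lines), and the median of the fitted changes was 0.22, against 0.02 over all genes.

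Under ATO the lines gave different values. In U266 the median member was lower than control 2 at each time. Below it by at least 1 log2 unit were 7 members at 6 h (3.03% of all genes), 16 at 24 h (4.62%) and 12 at 48 h (4.98%), and 0 were as far above it at any time (3.59%, 3.52% and 5.2%). The medians were -0.52, -0.88 and -0.56 log2 units at 6, 24 and 48 h. The direction turned with the control. Against U266 control 1 the medians were 0.28, 0.10 and 0.36, where the medians over all genes were 0.20, 0.17 and 0.23, and 25, 21 and 22 of 38 members were above it. In MM.1s the count above control 2 was 3 at 6 h, 7 at 24 h and 15 at 48 h (5.25%, 6.45% and 7.22% of all genes), and the median at 48 h was 0.85. In KMS11 it was 3, 5 and 9 (6.13%, 5.63% and 8.86%), and in 8226/S 2, 3 and 7 (3.74%, 2.87% and 3.64%). At 48 h 12 of 15 in MM.1s, 8 of 9 in KMS11 and 7 of 7 in 8226/S also cleared the other untreated array by 1 log2 unit. Of all genes that far above control 2, 66.7%, 70.5% and 56.7% did so in these lines, which makes 4.82%, 6.25% and 2.06% of all genes tested. At least 1 log2 unit below control 2 at 6, 24 and 48 h were 3, 3 and 0 members in MM.1s (5.21%, 4.43% and 6.53% of all genes). The count was 3, 0 and 0 in KMS11 (3.96%, 4.3% and 5.74%) and 0 at each time in 8226/S (3.85%, 3.09% and 3.72%).

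In U266 the tested member furthest below control 2 was USP18 at 6 h and IFIT1 at 24 and 48 h of ATO. IFIT1 read 1450 untreated (control 2) and 505, 94.2 and 55.5 after 6, 24 and 48 h. ISG15 read 2720, 2600, 492 and 395, and CCL5 312, 247, 97.1 and 28.5, in the same order. These 3 were lower at each later time in U266. IFIT1 was not lower in U266 alone, being below control 2 in all 4 lines at 6 and 24 h. In MM.1s it read 18.6, 123 and 418 after 6, 24 and 48 h of ATO, against 424 in control 2. Both size and, for some members, direction depend on the control. U266's own control 1 read 356 for IFIT1, 1170 for ISG15 and 229 for CCL5. Against both untreated arrays, 5 members were at least 1 log2 unit lower at 24 h (1.51% of all genes) and 4 at 48 h (2.31%). IFIT1, IFIT2, ISG15 and CCL5 made up the 4, and ISG20 was the other at 24 h. IFI27, a mitochondrial protein, read 3470 in control 2 and 306 in control 1, with 2820, 1320 and 1210 under ATO between them, so its direction turns with the control. Between 6 and 48 h of ATO, with no control used, 8 members were at least 1 log2 unit lower at 48 h in U266 and 3 as far above (3.89% and 4.01% of all genes).

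In MM.1s the members furthest above control 2 after 48 h of ATO were MX1, at 1250, against 286 in control 2, LAMP3, at 2150, against 527, and IFI44, at 694, against 159. PARP14 was 1.81 log2 units above control 2 in this line. In KMS11 the member furthest above was IRF7, at 893, against 213 in control 2, and PARP9 stood 1.76 log2 units above. In 8226/S TRIM22 read 219, against 37.6, and IFI27 read 376, against 84.6.

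Over the 4 lines few members changed under ATO. The count above control 2 in all 4 lines was 1, 3 and 5 at 6, 24 and 48 h (14.7%, 15.3% and 16.6% of all genes), and the count below it was 9, 3 and 1 (13.9%, 11.5% and 11.1%). At 6 h EPSTI1 fell by 0.75 (SE 0.21, limma adjusted p = 0.0279), 1 of 38, against 6.43% of all genes called. The EPSTI1 call was lost without U266, MM.1s or KMS11, or without the 6 h array of MM.1s or KMS11, and 2 members passed without the U266 6 h array. At 24 h IFI35 rose by 0.66 (SE 0.18, limma adjusted p = 0.0348), 1 of 38 against 5.03%, a call lost without U266, MM.1s or KMS11 and without any 1 of the 4 ATO 24 h arrays, and at 48 h it rose by 0.88 (SE 0.18, limma adjusted p = 0.00245), 1 of 38 against 11.9%. IFI35 was thus the 1 member called at 24 h of DAR and at both later ATO times. At 48 h 6 members passed without U266, 4 without 8226/S and 2 without the U266 array. From 6 to 48 h of ATO DTX3L rose by 0.87 (SE 0.24, limma adjusted p = 0.041), 1 of 38 against 3.81%, and 10 of the 11 members with an unadjusted p under 0.05 were higher at 48 h (17% of all genes had such a p). From 6 to 24 h of ATO limma called 0 members (0.453% of all genes), and 4 had an unadjusted p under 0.05 (10.8% of all genes).

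The line differences themselves did not pass a test. With the 5 treated arrays of a line averaged, limma called 0 members in each of the 4 lines (0%, 0.291%, 2.25% and 0.0583% of all genes in U266, MM.1s, KMS11 and 8226/S). The unadjusted p was under 0.05 for 12 members in 8226/S (8.54% of all genes), 5 in KMS11 (16%), 4 in MM.1s (11.6%) and 0 in U266 (7.94%). The test of each line against the mean of the other 3 also called 0 members in each (0.00647% of all genes in KMS11 and 0% in the others). It gave an unadjusted p under 0.05 for 5 members in U266 (5.19% of all genes), 3 in 8226/S (4.56%), and 1 each in MM.1s (3.94%) and KMS11 (4.97%). Taking each agent apart, a fit added after the data had been seen, gave 0 calls for 8226/S under DAR (0.0453% of all genes) and 0 for U266 under ATO (0.0194%) against the other lines. The unadjusted p was under 0.05 for 10 members in 8226/S (5.96% of all genes) and for 5 in U266 (3.25%). OASL, a relative of the OAS enzymes, differed by 2.09 log2 units in 8226/S under DAR (SE 0.57, 95% interval 0.89 to 3.29, limma adjusted p = 0.313). IRF7 differed by -1.98 in U266 under ATO (SE 0.40, 95% interval -2.82 to -1.14, limma adjusted p = 0.228). Its mean change in U266 under ATO was -1.29 against control 2 and -0.09 against control 1. These terms average 6 and 24 h of DAR, and 3 members were called for 8226/S when its 6 h array was left out.

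In 8226/S alone both agents were given at the same dose, 2 µM. At 24 h IFIT3 read 8550 under DAR and 393 under ATO, ISG15 10600 and 890, and CXCL10 9330 and 711, but the agents lie in different array sets and no replicate exists. Untreated, IFIT3 read 191 in control 1 and 453 in control 2, ISG15 1200 and 795, and CXCL10 985 and 1070.

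The untreated lines differed in their interferon gene level. Both U266 controls lay above all 6 controls of the other lines for 21 of 38 members, against 11.4% of all genes, among them OAS1, OAS2, OAS3, MX1, IFIT3, IRF9 and USP18. The same held for HERC6 and ISG20 in MM.1s (2 of 38, 6.62% of all genes), for CXCL10 in 8226/S (1 of 38, 9.09%) and for 0 in KMS11 (5.3%). OAS1 read 6290 and 4340 in U266, 1070 and 602 in MM.1s, 346 and 510 in 8226/S, and 432 and 173 in KMS11. The last 2 lines overlap in this order. The limma F test over the 8 controls called 21 of 38 members (16.9% of all genes), and 32 with the control number as a replicate block (52% of all genes). The 21 called are not the same genes as the 21 highest in U266. OAS2, IFIH1, CMPK2, IFI27 and XAF1 were not called, while CCL5, CXCL10, EPSTI1 and ISG20, highest on average in other lines, were. The F test called 13 without U266 control 2.

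**Figure D5:**
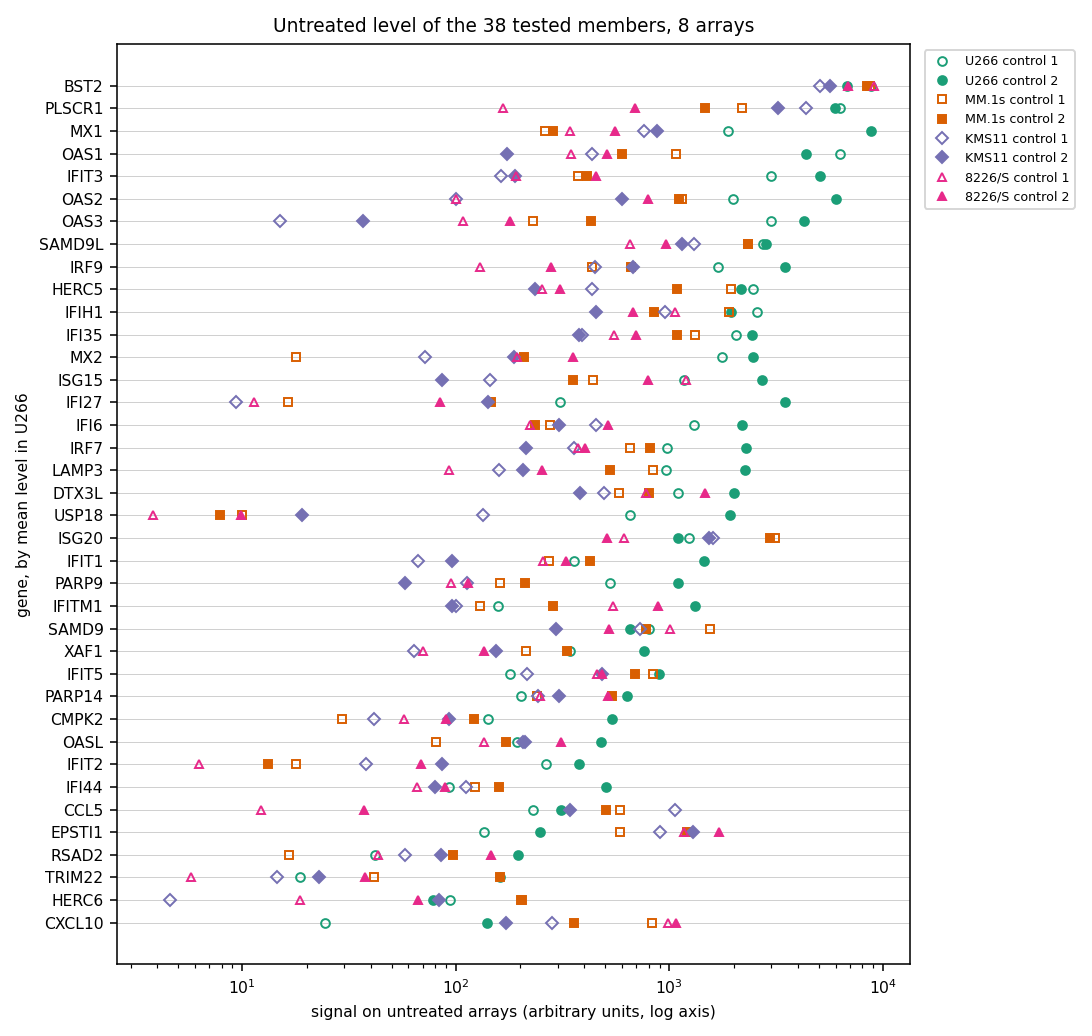
Signal (arbitrary units, log axis) of the 38 tested members on the 8 untreated arrays, open symbols for control 1 and filled for control 2, ordered by the mean in U266. The green U266 symbols lie to the right of all others for 21 members.

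The 2 untreated arrays of a line also differed from each other. Limma called 17 members between control 2 and control 1, 15 higher and 2 lower in control 2, against 45% of all genes called, and the median over members was 0.57, against 0.21 over all genes. IFI27 differed most (2.24, SE 0.34, limma adjusted p = 0.000721). In U266, 20 members were at least 1 log2 unit higher in control 2 (19.2% of all genes), against 9 in 8226/S (19.2%), 7 in MM.1s (20.7%) and 5 in KMS11 (21.6%). With each array centred on its median the split was 2 higher and 6 lower, and without U266 the fit called 8 members. The cause of the difference between controls was not tested.

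The genes upstream of these members were read from a list chosen with earlier results known, of which 30 were measured and 25 tested. IFNB1, the gene of interferon beta, did not pass the filter because it was above the array median on 1 array, that of 8226/S after 24 h of DAR. It read 346 there, and 4.43 to 22.6 with a median of 11.2 on the other 27 arrays. IFNA1, IFNA2 and the RNA sensor TLR3 were above the median on 0 arrays. The receptor subunit IFNAR2 was lower than control 2 under ATO in all 4 lines. It fell by 0.81 at 24 h (SE 0.13, limma adjusted p = 0.00052) and by 1.21 at 48 h (SE 0.13, limma adjusted p = 2.99e-06). Its signal at 48 h was 1340 in U266, 1030 in MM.1s, 1130 in KMS11 and 1050 in 8226/S, against 3240, 2280, 3700 and 1820 in control 2. At 6 h of DAR 5 of 25 upstream genes rose and 0 fell, against 13.2% of all genes called. Among the 5 were the feedback inhibitor SOCS1 (1.32, SE 0.32, limma adjusted p = 0.00664), the factor IRF1 (0.73, SE 0.14, limma adjusted p = 0.000914) and the adaptor MAVS (0.72, SE 0.17, limma adjusted p = 0.00481). At 24 h of DAR limma called 0 of 25, with 5 at an unadjusted p under 0.05, against 0.621% and 14.7% of all genes. Under ATO the upstream calls were 2 higher and 2 lower at 6 h, 0 higher and 1 lower at 24 h, and 2 higher and 1 lower at 48 h, against 6.43%, 5.03% and 11.9% of all genes called. RIGI, the gene of the sensor RIG-I, read 152 at 24 h of DAR, against 173 untreated, in 8226/S.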

How the data were processed

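RNA was hybridised to Affymetrix arrays, and the deposited table holds linear intensity signals that the authors made with GCOS, per the submitters' processing notes, its version not given in the sources used here. Each array's mean without the top and bottom 2% is 500 within rounding, which is scaling to a common target found in the values. From these, log2(signal + 29) was computed with no further scaling. Of 54675 probe sets 41097 carry 1 gene symbol, 1801 several and 11777 none. The brightest 1-symbol probe set stands for a gene, and genes above the array median on at least 4 of 28 arrays were tested. Limma 3.58.1 in R 4.3.3 (lmFit, eBayes with trend) fitted a baseline for each line and array set with 5 treatment terms, with Benjamini-Hochberg adjustment over all 15448 genes and calls at an adjusted p under 0.05. P-values of the treatment, time and control fits rest on spread between lines. Those of the line fits rest on spread between agents and times within a line. Those of the F test rest on the difference between the 2 controls of a line. The F test over controls leaves out the control number. Alternatives were the offset, scaling, filter, probe set rule, control, variance trend and leaving out lines or arrays. The fits were tested on simulated data. Every member may be named. A listed upstream gene is not reported here. The members and lists were chosen with earlier results of these data known.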

Additional observations from a re-analysis of the deposited data

Results flagged for a closer look

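Among 145 sets of 4 line values, 1 per line, 11 had a line far from the others by Dixon's criterion at the 95% level. Chance alone picks about 1 in 20 sets that are independent and not preselected. Here the members were picked for the largest mean changes in any line, and the sets share arrays. The 11 therefore cannot be set against that rate. Values here are log2 changes against the matched control, and each has 1 array per line. Of the 11, 7 were U266. After 6 h of ATO, U266 stood at -2.03 for USP18 and -1.36 for DTX3L, where the remaining lines gave -0.37 to -0.08 and -0.24 to -0.02. USP18 was dim in those lines, reading 7.85 and 5.97 in MM.1s, 19 and 8.1 in KMS11 and 9.82 and 6.7 in 8226/S. These are control 2 and the 6 h array, and the offset of 29 keeps changes of such dim signals near 0. After 24 h of ATO U266 had a median over the 38 members of -0.88 (the other lines, 0.15 to 0.30) and a PARP9 change of -0.88 (the other lines, 1.09 to 1.34). After 48 h, IFIT1 was -4.13 and ISG15 -2.70 in U266, against -0.02 to 0.72 and 0.57 to 1.13. After 6 h of DAR the median over members was 0.08 in U266, against 0.21 to 0.22. The ATO values of U266 depend on its control 2. Against its control 1 the 24 h median over members was 0.10 and the PARP9 change 0.14, while USP18 and DTX3L stood at -0.52 and -0.51 at 6 h, and IFIT1 and ISG15 at -2.19 and -1.50 at 48 h.

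In 8226/S, XAF1 at 0.70 and CCL5 at 1.06 stood apart after 6 h of ATO, against -0.80 to -0.69 and -0.32 to -0.11 in the other lines. IFIT3 at 5.28 stood apart in 8226/S after 24 h of DAR, against 1.20 to 1.66. In MM.1s, MX2 at 0.56 stood apart after 48 h of ATO, against 0.42 to 0.45.

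For 9 members every array of 1 line moved one way and every array of the other 3 lines the opposite way under an agent. This difference was not tested beyond the fits given above. The members examined were those with large changes in any line, and the share of all genes with this pattern is not given. The 9 are thus a description and not a count read as unusual. Under ATO the mean in U266 was -0.59 for IRF9, -1.29 for IRF7, -0.83 for PARP9, -0.12 for PARP14 and -0.79 for IFI44, while all arrays of the other lines lay above 0. This direction turns with the control, since against U266 control 1 the means were 0.45 for IRF9, 0.19 for PARP9, 1.41 for PARP14 and 1.33 for IFI44, and -0.09 for IRF7. CCL5 averaged 0.94 under ATO in 8226/S and was below 0 on all ATO arrays of the other lines. Under DAR the averages were -0.38 for IFIT2 in MM.1s, -0.23 for OASL in KMS11 and -0.23 for MX2 in U266, with the other lines above 0. IFIT2 was above the array median on 0 MM.1s arrays, so its direction there is imprecise. For OASL in KMS11 at 24 h the probe set used gave -0.34 and the other gave 0.37, so its direction turns with the probe set.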

How the results depend on the processing

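Of 221 recomputed main values, 194 kept their direction and about their size, 23 moved and 4 turned their direction. The 4 were the U266 medians under ATO, which became 0.28, 0.10 and 0.36 at 6, 24 and 48 h against its control 1, and the split of the control comparison after median centring. Of 484 recomputed values of single genes, 142 lost their call and 0 reversed. With both controls pooled the members called became 0 at 6 h, 2 at 24 h and 6 at 48 h of ATO, 4 at 6 h and 10 at 24 h of DAR, and the DAR 6 h median 0.06. With probe sets averaged they became 0 (ATO 6 h), 1 (DAR 6 h) and 3 (DAR 24 h), and without the variance trend 0 (ATO 6 h), 0 (ATO 24 h) and 2 (DAR 24 h). Quantile normalization, and no filter, each gave 3 at DAR 24 h. Median centring gave 0 at ATO 24 h and a DAR 6 h median of 0.13, and an offset of 1 gave 0.30. The control comparison called 7 members after quantile normalization and 8 after median centring, 2 higher and 6 lower. The baseline F test called 32 with the control number as replicate block. Against the other control, members at least 1 log2 unit above in U266 at DAR 24 h numbered 2, and those below at ATO 24 and 48 h numbered 5 and 6. An offset of 100 left 5 above in MM.1s at DAR 24 h. The shares of all genes called under these settings, or with a line or array left out, are not given. A changed count is therefore not read as particular to the members. The causes were not tested.

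Leaving out a line or an array in turn, members called ranged from 0 to 2 (ATO 6 h), 0 to 1 (ATO 24 h), 1 to 6 (ATO 48 h), 1 to 4 (DAR 6 h), 0 to 10 (DAR 24 h) and 6 to 13 (DAR 24 h minus 6 h). The medians ranged from -0.21 to -0.04, -0.1 to 0.25, 0.08 to 0.52, 0.08 to 0.41 and 0.64 to 1.27 for the first 5 of these. The ATO 24 h median was above 0 without U266. The line fits ranged from 0 to 1 in KMS11 and 8226/S and were 0 in U266, in MM.1s and for every line minus the others. The fit by agent gave 0 to 3 for 8226/S under DAR, with a lone array assumed to vary like the others, and 0 for U266 under ATO. The baseline F test gave 13 to 20 and the control comparison 8 to 18. Dim members near the array floor have the least precise changes.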

Other observations

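A second list of 31 interferon-induced genes outside the members was measured for 28, and 27 were tested. After 24 h of DAR 8 of 27 stood at least 1 log2 unit above control 1 in 8226/S (8.17% of all genes), and the median over the list was 0.66, where the members' median was 2.54. NMI, the partner of IFI35, rose by 0.77 (SE 0.18) and the nuclear body protein SP110 by 0.72 (SE 0.17), both at a limma adjusted p of 0.0438, and 2 of 27 compares with 0.621% of all genes. From 6 to 24 h of DAR 5 rose, ADAR, CNP, PARP12, SP110 and TNFSF10, which encodes the death ligand TRAIL (1.05, SE 0.33, limma adjusted p = 0.0494). ZC3HAV1, an antiviral protein that binds RNA, fell between these times by 1.30 (SE 0.21, limma adjusted p = 0.000351), and these 6 of 27 compare with 7.74% of all genes called. It had risen at 6 h by 1.07 (SE 0.21, limma adjusted p = 0.00113).

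After 48 h of ATO 7 of the 27 rose and 1 fell, against 11.9% of all genes called, where the members gave 1 of 38. The 7 were SLFN5 (1.34, SE 0.32, limma adjusted p = 0.00709), APOL6 (1.04, SE 0.24, limma adjusted p = 0.00709), NMI (1.00, SE 0.18, limma adjusted p = 0.00077), APOL1, IFI16, NUB1 and SP110. TENT5C, a poly(A) polymerase that is often mutated in myeloma, fell by 0.97 (SE 0.19, limma adjusted p = 0.00177). Whether the 2 lists differ was not tested.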
